A study of Mus musculus with 2 samples.

Results

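The hair matrix cells of back skin are described here, chosen by 6 marker genes. A cell was a member when it held at least 1 UMI (unique molecular identifier, 1 counted mRNA molecule) in 2 or more of Lef1, Hoxc13, Msx1, Msx2, Dlx3 and Shh, and fewer than 20 UMIs of the inner root sheath genes Krt25, Krt27, Krt28, Krt71, Krt73 and Tchh per 10000 UMIs. This gave 518 of the 8899 skin cells that passed the filters, or 5.82% (exact 95% interval 5.34 to 6.33%), and 518 of the 13598 cells of the whole series. The same rule found 0 of 4699 cells in the preputial gland (PG), which allows a share of up to 0.0638%.

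The cells came from back skin of 3 male wild type C57BL/6 mice aged 52 weeks, pooled and run as 1 droplet library of 37675226 UMIs. PG of the same mice gave the other library, of 26288071 UMIs. With 1 library per tissue, the spread between mice could not be measured, no test was made, and each interval given covers counting error only. Cells with a UMI of the same gene share that library and are not replicates.

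The matrix is the pool of dividing epithelial cells at the base of a growing hair follicle, wrapped around the dermal papilla. Its daughters move upwards, leave the cell cycle and form the medulla, cortex and cuticle of the hair shaft and the layers of the inner root sheath. LEF1 carries the Wnt signal into the nucleus, HOXC13 and FOXN1 switch on hair keratin genes, MSX1, MSX2 and DLX3 act downstream of BMP signals in the follicle, and SHH is a signal sent by part of the matrix.

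The markers were unequally spread over the members. Lef1 (chr3:131110471-131224356 in GRCm38) had a UMI in 405 cells (78.2%), Hoxc13 (chr15:102921103-102928814) in 355 (68.5%), Msx2 in 261 (50.4%), Dlx3 in 249 (48.1%), Msx1 in 115 (22.2%) and Shh (chr5:28456815-28467256) in 37 (7.14%). Members held the minimum of 2 markers in 251 cells, 3 in 169, 4 in 79, 5 in 17 and all 6 in 2. The rule favoured deeply read cells. Members had a median of 4489.5 UMIs and 1682.5 genes against 2386 UMIs in all skin cells, and the median was 3433 UMIs in members with 2 markers and 5867 in those with 4. After every cell was thinned to 1000 UMIs, only 173 of the 518 (33.4%) still held 2 markers. Krt35, a keratin of the early cortex and cuticle that the rule did not use, was at 2070 CPM (UMIs of the gene per 1000000 UMIs of the group) in members with 2 markers, against 158 CPM in the 705 cells just outside the rule, with 1 marker and the same limit on sheath genes.

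For comparison, the other skin cells were classed by keratin and collagen UMIs into 544 inner root sheath cells, 3101 basal and 1285 suprabasal epidermal cells and 673 fibroblasts. Their median depths were 3323.5, 2572, 3219 and 1834 UMIs. The label was checked against the defining markers of 13 other classes. Krt5 and Krt14, the keratins of basal cells, were at 386 and 539 CPM in members and at 4411 and 8747 CPM in basal cells. The log2 ratio of Krt14 was -4.02, and -5.38 when the cells with the highest doublet scores were left out. Summed levels of T cell markers (8.44 CPM), melanocyte markers (75.6 CPM, of which Dct 62.5 CPM, against 24.9 CPM of Dct in basal cells), endothelial markers (14.2 CPM, with Cdh5 and Kdr at 0) and Merkel cell markers (1.15 CPM, with Krt20 at 0) were below those of the free RNA in near-empty droplets, which were 33.2, 1175, 33.5 and 8.25 CPM. A sum below free RNA does not show that cells of that class were absent. Summed markers of 11 of the 13 classes were below it, of which the inner root sheath, at 448 against 1626 CPM, is no check because the rule limited these genes. The exceptions were sebocyte markers, at 482 against 325 CPM, with Mgst1 the most abundant at 341 CPM and Cidea at 0, and dermal papilla markers, at 23.0 against 10.9 CPM, with Rspo3 at 19.9 CPM. At 20 or more UMIs per 10000, 52 members held basal markers, 34 fibroblast markers and 31 suprabasal markers. With stricter limits of 50 for suprabasal and fibroblast markers, and 20 for melanocyte, T cell, macrophage and endothelial markers, 29 members (5.60%) were past at least 1. Without the 29, the share of members with Krt35 was 47.6% and the share with cycling genes 44.6%, against 46.3% and 44.0% with them.

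**Figure D1:**
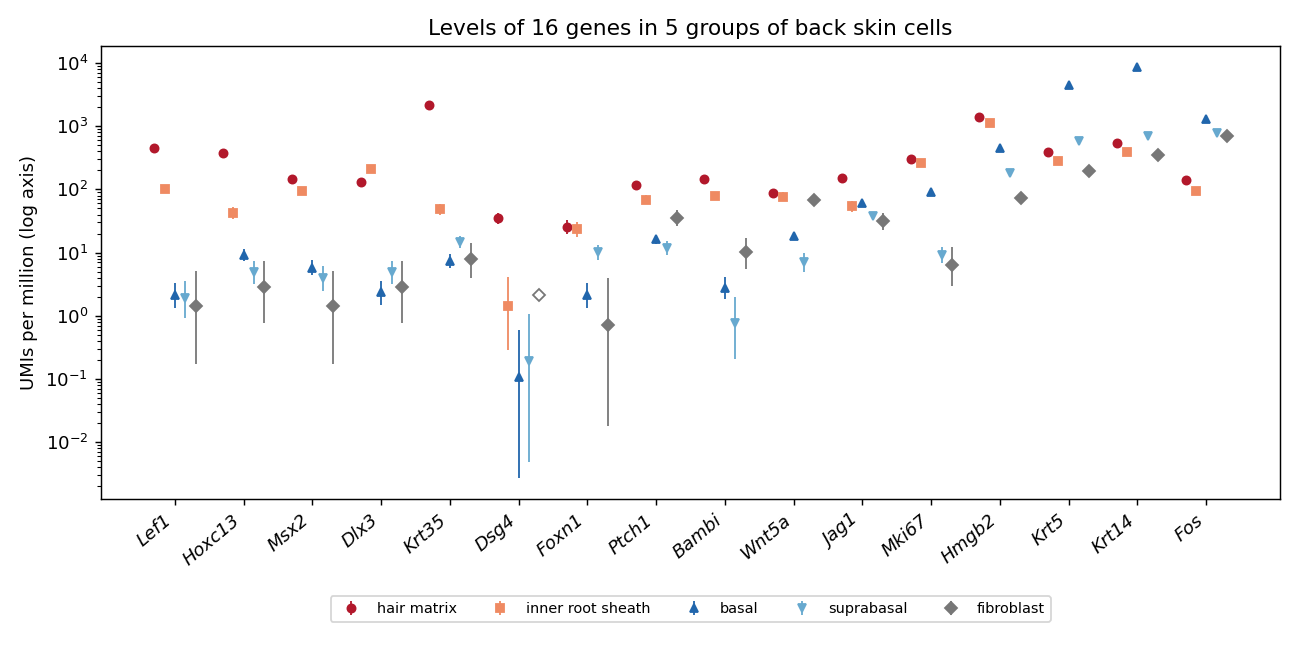
Levels of 16 genes in CPM on a log axis for 5 groups of back skin cells. Points are sums over all cells of a group, bars are exact Poisson 95% intervals, and an open symbol marks the limit of 3 counts for a group without UMIs. Lef1, Hoxc13, Msx2 and Dlx3 chose the hair matrix cells and Krt5 and Krt14 helped to choose the basal cells, while Krt35, Dsg4, Ptch1 and Bambi took no part in the choice.

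Genes of the hair shaft stood far above the epidermis. Of 9 hair shaft keratins that could be compared with basal cells, leaving out Krt35, 8 were at least 2-fold higher in members and 1 was lower, with a median log2 ratio of 7.83. Across all 7897 genes compared, 17.0% were at least 2-fold higher and 12.9% lower, and the median was 0.30. Krt35 itself was at 2181 CPM in members and 7.41 CPM in basal cells. Krt31 was at 1041 and 1.61 CPM, and Krt83 at 677 and 0.859 CPM. These levels rested on few cells, since Krt31 had a UMI in 49 members (9.46%) and Krt83 in 66 (12.7%), and 10 cells held 74.5% of the Krt31 UMIs and 84.7% of the Krt83 UMIs. The exception was Krt32, a cuticle keratin, at 8.44 CPM in members and 52.7 CPM in basal cells. Of 10 genes of shaft and sheath differentiation, 9 were higher, among them S100a3, a calcium-binding protein of the hair cuticle, at 2787 against 7.73 CPM, and Dsg4, the desmosomal cadherin of the hair cortex, at 34.9 against 0.107 CPM. Of the S100a3 UMIs, 58.5% lay in 10 cells. Keratin-associated proteins, the sulphur-rich matrix of the shaft, had UMIs from 16 of 57 genes and summed to 4691 CPM. They were at 33333 CPM in 35 members rich in late shaft keratins, a set defined below, and at 88.1 CPM in the 219 members outside all sets. They summed to 746 CPM in fibroblasts, 619 CPM in free RNA, 39.6 CPM in sheath cells and 13.7 CPM in basal cells.

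Among 28 transcription factors of the follicle that could be compared, 13 were at least 2-fold higher in members than in basal cells and 6 lower (median log2 ratio 0.40). Of all genes compared, 17.0% were higher and 12.9% lower, and their median of 0.30 was close to that of the list. Sp6 had a log2 ratio of 6.71 (5.31 to 8.61), Foxn1, the factor lost in nude mice, 3.58 (2.84 to 4.38), and Trps1 3.46 (3.18 to 3.74). Cux1 was at 372 CPM in members, 95.6 CPM in basal cells and 768 CPM in inner root sheath cells. Gata3, a factor of the inner root sheath and the interfollicular epidermis, was lower, at 50.2 CPM against 338 CPM in sheath cells and 274 CPM in basal cells. All 7 genes of the basal list, 2 of which chose the basal cells, and 9 of the 11 genes of the bulge and hair germ, the resting stem cell compartment, were lower in members than in basal cells. The 12 genes induced by tissue dissociation were lower too, 12 of 12, with Fos at 140 against 1280 CPM and Jun at 370 against 2191 CPM. Between members and inner root sheath cells, 0 of the 12 differed by 2-fold, beside 4.83% of 7810 genes higher in members and 4.26% lower. Whether handling of the tissue had a part in the differences from basal cells was not tested.

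Among the lists of signalling pathways, the receptors and effectors of hedgehog signalling had the highest median against basal cells. Apart from Shh, 7 of them could be compared with basal cells, of which 3 were higher and 1 lower, with a median log2 ratio of 0.74. Across all genes compared, 17.0% were higher and 12.9% lower, with a median of 0.30. Ptch1, a receptor that is itself switched on by the signal, was at 116 against 16.4 CPM. Gli1, another target, was at 26.5 against 4.08 CPM and Gli3, a transcription factor of the pathway, at 57.9 against 15.4 CPM. Smo, which passes the signal on, was at 63.7 and 68.4 CPM, with a log2 ratio of -0.10 (-0.36 to 0.15). The co-receptor Gas1 was lower, at 5.75 against 63.9 CPM.

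The Wnt lists are short and had genes in both directions, beside 17.0% of all genes higher and 12.9% lower, so values of single genes are given. Of 7 Wnt ligands, Wnt5a and Wnt10b were higher in members, at 87.5 and 31.5 CPM against 18.4 and 8.81 CPM in basal cells, and Wnt7b and Wnt10a lower, at 8.06 and 35.3 CPM against 44.9 and 75.2 CPM. The 7 ligands that could be compared with sheath cells included Wnt11 in place of Wnt7b. Of these, 4 were higher in members, among them Wnt10a, at 8.49 CPM in sheath cells, and 1, Wnt11, was lower. Of 12 targets and antagonists, 4 were higher and 3 lower. Wif1, which binds Wnt ligands, was at 62.9 against 3.97 CPM. Axin2, the usual readout of Wnt signalling, was at 51.4 and 35.1 CPM, with a log2 ratio of 0.55 (0.25 to 0.84). Sfrp1, a secreted inhibitor, had a log2 ratio of -1.89, but -0.69, short of 2-fold, when the rule was applied after thinning, and -3.96 at 3 or more markers. It was at 15.7 CPM in members, 58.2 CPM in basal cells and 5.66 CPM in sheath cells.

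Of 18 genes of the BMP pathway, 4 were higher in members than in basal cells and 3 lower (median log2 ratio 0.13), near the 17.0% and 12.9% of all genes, whose median was 0.30. Bambi and Sostdc1 are in the list of Wnt antagonists too. Bambi, a decoy receptor for BMP signals, was at 146 against 2.79 CPM, a log2 ratio of 5.71 (5.13 to 6.34). Bmp7, a ligand, was at 41.4 against 10.8 CPM, and Id2, a target, at 84.8 against 34.3 CPM. The secreted inhibitors Sostdc1, Grem1 and Fst were lower, Fst at 33.4 against 139 CPM. Of 10 Notch genes, Jag1 was higher, at 154 against 61.7 CPM, and Dll1 lower. Of 16 genes of ectodysplasin, FGF and EGF signalling, 0 were 2-fold higher and 6 were lower.

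Other genes with the largest ratios to basal cells were Tagln3, at 123 against 0.322 CPM, Ly6g6d, at 155 against 0.859 CPM, and Cybrd1, an iron reductase, at 75.6 against 0.537 CPM. Most members lacked them, since they had a UMI in 14.9%, 12.5% and 22.6% of members. Among the smallest were Krt6a, a keratin of the outer root sheath and of wounded skin, at 8.06 against 167 CPM, and Ptgs2 and Ptges, enzymes of prostaglandin E2 synthesis, at 4.60 and 3.45 against 79.0 and 60.2 CPM. Krt75 was the only gene of 9 in the companion layer and outer root sheath list that was higher, at 62.1 against 2.47 CPM. In that list 7 were lower, beside 17.0% of all genes higher and 12.9% lower.

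**Figure D2:**
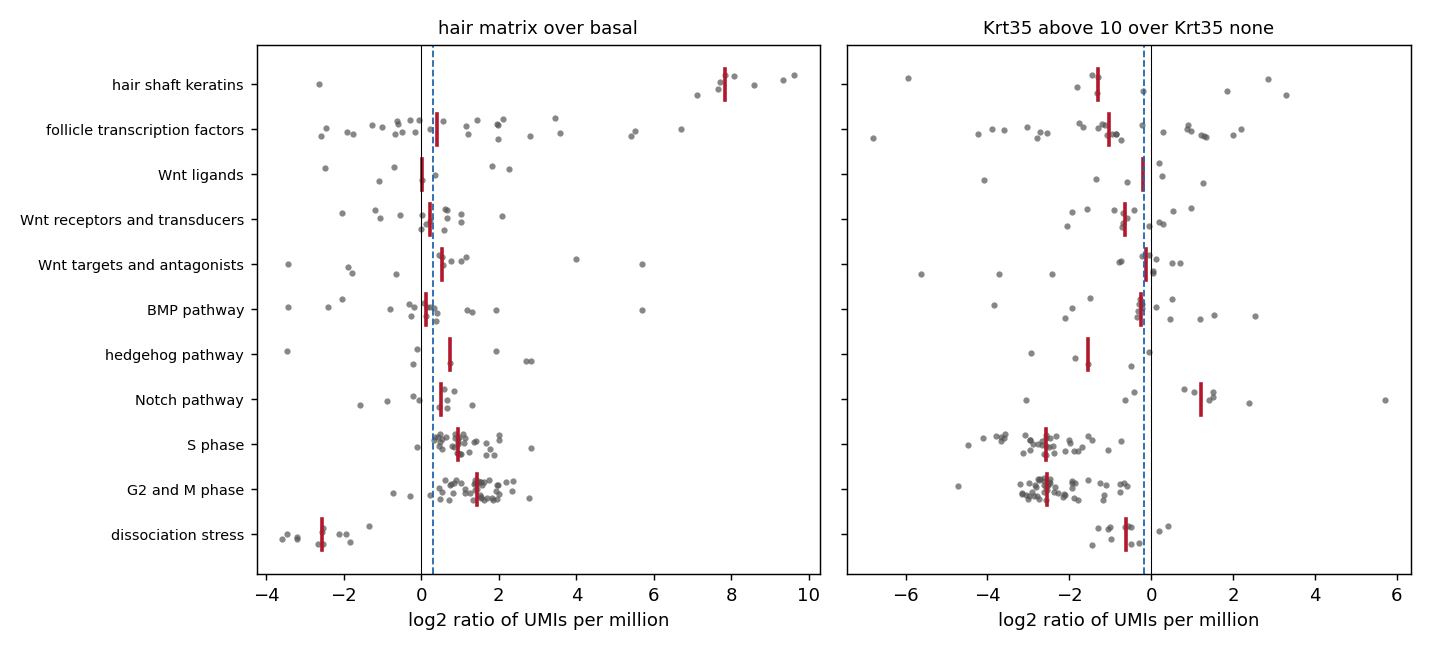
Log2 ratios of CPM for genes of 11 lists, hair matrix over basal cells on the left and, within the hair matrix cells, cells above 10 Krt35 UMIs per 10000 over cells without Krt35 on the right. Each dot is a gene with a mean of at least 10 CPM, the red bar is the median of the list, the dashed line is the median of all genes, and the 6 genes of the rule and Krt35 are left out. Cell cycle genes lie mostly above the dashed line on the left and below it on the right.

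Many members were dividing. Mki67 or Top2a, genes of cycling cells, had a UMI in 228 of 518 members (44.0%, 39.7 to 48.4%), against 89.2% when UMIs of 2 genes of the G2 and M list were asked for instead, and in 28.6% (24.7 to 32.7%) after thinning to 1000 UMIs. Thinned shares were 23.5% in inner root sheath cells, 7.29% in basal cells, 1.79% in suprabasal cells and 0.743% in fibroblasts. Of the genes of DNA replication, the S phase list, 15 of 35 were at least 2-fold higher in members than in basal cells and 0 lower. Of those of G2 and mitosis, 33 of 46 were higher and 0 lower. The shares over all 7897 genes compared were 17.0% higher and 12.9% lower. Hmgb2, a chromatin protein abundant in dividing cells, was at 1378 CPM in members, 1139 CPM in sheath cells and 445 CPM in basal cells. Odc1, the first enzyme of polyamine synthesis, was at 663 CPM in members, 105 CPM in sheath cells and 152 CPM in basal cells.

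The inner root sheath cells are the nearest neighbours by lineage. Beside the 4.83% of all genes at least 2-fold higher in members than in sheath cells and the 4.26% lower, 1 of 36 S phase genes was higher and 0 lower, and of 51 G2 and M genes Bub1 was higher and Gas2l3 lower. Of 16 BMP genes, 4 were higher and 0 lower, and of 3 dermal papilla genes Rspo3, Wif1 and Vcan were all higher. Of 9 shaft keratins, 8 were higher, with Krt33a at 1092 against 1.42 CPM and Krt86 at 104 against 2.83 CPM. The list of shaft and sheath differentiation was split, with 6 of 13 genes higher and 6 lower (median log2 ratio -0.27). Selenbp1, a selenium-binding protein, was at 248 against 6.13 CPM. Of the upper follicle list 5 of 6 genes were higher, and of the suprabasal list 5 of 9 were higher and 2 lower. Of the Lor UMIs, 96.7% lay in 10 cells. Krt10, which did not differ 2-fold from sheath cells, had a UMI in 187 members (36.1%), with 70.1% of its UMIs in 10 cells. Prr9, at 0.384 against 419 CPM, and Crym, at 0.384 against 177 CPM, were among the genes lowest in members relative to the sheath. Lef1, at 450 against 102 CPM, and Hoxc13, at 372 against 42.9 CPM, were also higher in members, as the rule favours.

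Krt35 divided the members. It had a UMI in 240 of 518 (46.3%, 42.0 to 50.7%) and in 39.4% after thinning, against 4.60% of sheath cells, 1.71% of basal cells and 1.49% of fibroblasts, a cell type that should lack it. Members were ordered by Krt35 UMIs per 10000 UMIs into 278 cells without it, 52 up to 10, 157 above 10 and up to 100, and 31 above 100. Their median depths were close, between 4306 and 4900.5 UMIs. The thinned share with Mki67 or Top2a was 41.7% (35.9 to 47.8%) without Krt35 and 38.5% (25.3 to 53.0%) in the low group. It was 7.64% (4.01 to 13.0%) in the middle group and 0 of 31 cells (0 to 11.2%) in the high group. The largest fall was between the low and middle groups, in 1 library whose intervals cover counting error only. S phase genes summed to 2507, 1899, 565 and 177 CPM along the same order. Between members above 10 and members without Krt35, 35 of 36 S phase genes and 46 of 50 G2 and M genes were at least 2-fold lower, beside 17.5% of 7741 genes lower and 5.28% higher. Of 9 genes of cell cycle exit, 3 were higher and 2 lower. The cell cycle inhibitor Cdkn1a was at 369 against 172 CPM and Cdkn2b at 35.3 against 9.58 CPM, while the inhibitor Cdkn1b was at 39.6 against 92.1 CPM and Btg2 at 19.2 against 73.0 CPM.

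**Figure D3:**
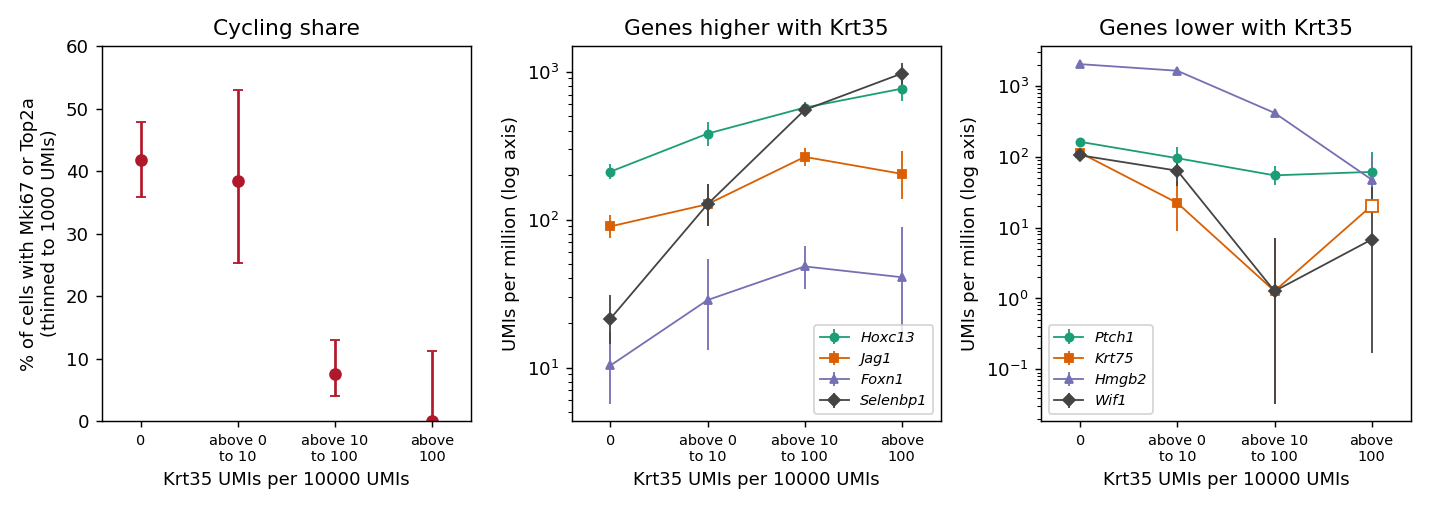
Hair matrix cells in 4 groups by Krt35 UMIs per 10000 UMIs. The left panel shows the percent of cells with Mki67 or Top2a after thinning with exact binomial 95% intervals, and the other panels show CPM on log axes with exact Poisson 95% intervals, where open symbols mark the limit of 3 counts. The cycling share was 41.7% without Krt35 and 7.64% in the middle group, while Selenbp1 was highest in the last group, at 971 CPM.

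Selenbp1 followed the same order, at 21.4, 127, 551 and 971 CPM. Hoxc13 was at 211, 381, 571 and 767 CPM from the cells without Krt35 to the high group, and Lef1 at 352, 410, 584 and 720 CPM. Both chose the members, so their order is a description from which nothing is read. Of 10 Notch genes, 6 were at least 2-fold higher above 10 than without Krt35 and 1 was lower. Notch1 was at 310 against 109 CPM, Jag1 at 256 against 89.9 CPM, and Heyl, a Notch target, at 38.5 against 0.737 CPM. Jag2, the other measured ligand of this family, went the opposite way, at 13.9 against 116 CPM. Hedgehog genes were lower, 3 of 5 without counting Shh, with Ptch1 at 55.6 against 162 CPM, Gli1 at 10.7 against 39.1 CPM and Gli3 at 11.8 against 89.9 CPM. Wnt5a was at 7.49 against 127 CPM, whereas Wnt10a was higher, at 58.8 against 24.3 CPM. Of 16 BMP genes, 3 were higher and 4 lower (median log2 ratio -0.24), beside 5.28% of all genes higher and 17.5% lower. Bmp7 was at 74.9 against 25.8 CPM and Id2 at 124 against 54.5 CPM, but Bmp2 at 12.8 against 48.6 CPM and Id3 at 133 against 375 CPM. Axin2 was at 50.3 and 52.3 CPM, a log2 ratio of -0.06 (-0.62 to 0.49). Among the leading genes were also Mylk3, at 50.3 CPM above 10 and without UMIs in the cells lacking Krt35, at least 4.51 higher on the log2 scale with the limit of 3 counts over the group, and Fez1, Alox12, Dapl1 and Dsg4. Foxq1, Krt75, Krt23 and Sct, at 119, 113, 113 and 64.9 CPM without Krt35, were each at 1.07 CPM above 10.

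The cells without Krt35 were not uniform, since 10 of them were rich in other shaft keratins. These 10 cells held 1494 of the 1498 Krt33a UMIs of the 278 cells, or 99.7%. As a result Krt33a was at 441 CPM above 10 and at 1104 CPM without Krt35, and Krt83 at 232 and 811 CPM. Cells past limits of late shaft keratins, epidermal genes or fibroblast genes were therefore left out of the cells without Krt35, a step chosen after the values were seen, which left 250 cells. In these 250 cells Krt33a was at 3.50 CPM and Krt83 at 0.876 CPM. The limit used these keratins and was set on the cells without Krt35 alone, while 21 late shaft keratin cells stayed above 10, so the order of the late keratins is fixed by it and none is read. With all cells, 3 of 9 shaft keratins were higher above 10 and 5 lower, beside 5.28% of all genes higher and 17.5% lower. Against the 250 cells, Notch genes counted 5 higher and 1 lower of 10, and hedgehog genes 0 higher and 4 lower of 6, beside 6.97% of all genes higher and 18.9% lower.

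Markers of other cell types differed along the same contrast. With all cells, 9 of 9 suprabasal genes were lower above 10 Krt35 UMIs than without Krt35 (median log2 ratio -3.13). So were 6 of 6 upper follicle genes, 4 of 4 fibroblast genes and 4 of 5 dermal papilla genes (median -4.08), the last being Rspo3, Wif1, Vcan and Crabp1. In this comparison 17.5% of all genes were lower and 5.28% higher. Against the 250 cells, 0 of 8 suprabasal, 2 of 6 upper follicle, 1 of 4 fibroblast and 4 of 5 dermal papilla genes were lower. There, 1 suprabasal gene, Flg, was higher, and 18.9% of all genes were lower and 6.97% higher. The limits that left the 250 cells used epidermal and fibroblast genes, on the cells without Krt35 alone. The smaller counts for the epidermal and fibroblast lists are therefore set by these limits, and nothing is read from them. The 4 muscle genes Acta1, Ckm, Tnnc2 and Des were higher above 10 in both comparisons, with medians of 2.77 and 2.62, and 1 cell held most of the muscle UMIs of all members. The part of these cell types in the differences along Krt35 was not tested.

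To describe these kinds of cell, the members were sorted into sets by limits also chosen after their values were seen, taken in order. Krt31, Krt33a, Krt33b, Krt83 and Krt87 together at 20 or more per 10000 UMIs gave 35 late shaft keratin cells. Epidermal genes at 50 or more, either Krt1 and Krt10 together or Krtdap, Sbsn and Lor together, gave 20 cells. Krt35 above 10 gave 166 more cells, UMIs of 2 or more of Foxq1, Krt75 and Krt23 gave 43, and Shh gave 35. The remaining 219 cells (42.3%) met none of these. Genes that define a set are no result for it, and the sets are ranges of a measured level rather than established cell types.

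**Figure D4:**
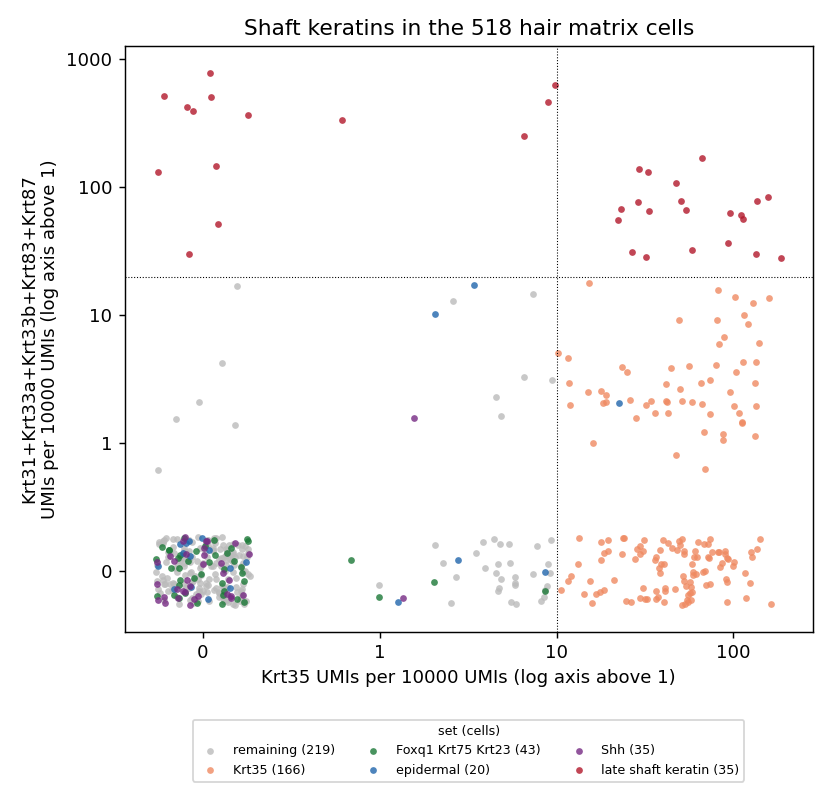
Each point is 1 of the 518 hair matrix cells, with Krt35 UMIs per 10000 UMIs on the x axis and the sum of Krt31, Krt33a, Krt33b, Krt83 and Krt87 on the y axis, both linear from 0 to 1 and logarithmic above, with points at 0 spread out for display. Dotted lines mark the limits of 10 and 20. The 10 cells richest in late keratins all lie left of 10 Krt35 UMIs, the highest at 9.84.

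The remaining cells and the Shh cells were the most proliferative. Their thinned shares with Mki67 or Top2a were 47.5% (40.7 to 54.3%) and 62.9% (44.9 to 78.5%), against 18.6% (8.39 to 33.4%) in the Foxq1, Krt75 and Krt23 cells, 7.23% (3.79 to 12.3%) in the Krt35 cells and 0 of 35 in the late cells. In the remaining cells Timp3, an inhibitor of metalloproteinases, was at 182 CPM against 17.0 CPM in the Krt35 cells, and Nfib, a transcription factor of follicle stem cells, at 428 against 69.4 CPM. Ptch1 was at 203 CPM there, at 121 CPM in the Shh cells, and between 44.7 and 59.0 CPM in the other 3 sets apart from the epidermal one.

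Shh cells also held other signalling genes. Wif1, which is in the dermal papilla list too, was at 479 CPM in them and 63.8 CPM in the remaining cells, Wnt10b at 146 against 22.3 CPM and Wnt6 at 121 against 21.3 CPM. Lrp4 and Kremen2, surface proteins that bind inhibitors of Wnt signalling, were at 146 and 133 CPM, against 7.09 and 12.1 CPM. Ptn, the growth factor pleiotrophin, was at 2391 against 678 CPM. Fn1, fibronectin, a gene of stromal cells, was at 212 against 44.5 CPM, and Dcn had a UMI in 18 of the 35 Shh cells, while Col1a1 was at 36.4 CPM in them and 54.7 CPM in the remaining cells. The part of papilla or stromal RNA was not tested. Hoxc13 was at 97.1 CPM, and 240 CPM in the remaining cells, but Shh is itself a marker of the rule, so that Shh cells needed only 1 other marker and the order is partly set by the choice. Of all 37 members with Shh, 3 had a Krt35 UMI. Only 92 Shh UMIs were counted in all, and 59.8% of them lay in 10 cells.

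The 43 cells with Foxq1, Krt75 and Krt23 shared a wide set of genes. Foxq1 is known from the satin mouse, whose hair medulla is abnormal, and Krt75 is a keratin of the companion layer and medulla. Kitl, the growth factor for melanocytes, was at 1288 CPM (1148 to 1440) in these cells and at 170 CPM in the remaining cells. Gpnmb, a melanosomal glycoprotein, was at 1501 CPM, against 159 CPM in the Krt35 cells, and Aldh1a3, an enzyme of retinoic acid synthesis, at 698 against 64.2 CPM. Fabp4, a fatty acid carrier, reached 1623 CPM, and Soat1, which esterifies cholesterol, 427 CPM, beside 17.0 and 3.93 CPM in the Krt35 cells. Sct, the hormone secretin, was at 318 against 1.31 CPM. Gli3 was at 314 CPM, while Notch1 was at 8.36 CPM against 333 CPM in the Krt35 cells. Bambi was higher in these cells, at 364 CPM, than in the remaining ones, at 73.9 CPM. Hoxc13 was at 414 CPM and S100a3 at 594 CPM, whereas Krt31 and Krt33a had no UMI in 239109 UMIs. Cells past the limit of late keratins were taken first, so the lack of Krt31 and Krt33a is partly set by the sorting. Of the melanocyte markers, Dct was at 130 CPM in them and 76.9 CPM in the remaining cells, Mlana at 8.36 and 8.10 CPM, Pmel at 4.18 and 5.06 CPM, and Tyrp1 at 0 and 3.04 CPM. The part of melanocyte RNA in the levels of Kitl and Gpnmb was not tested. How far companion layer cells were included was not tested.

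**Figure D5:**
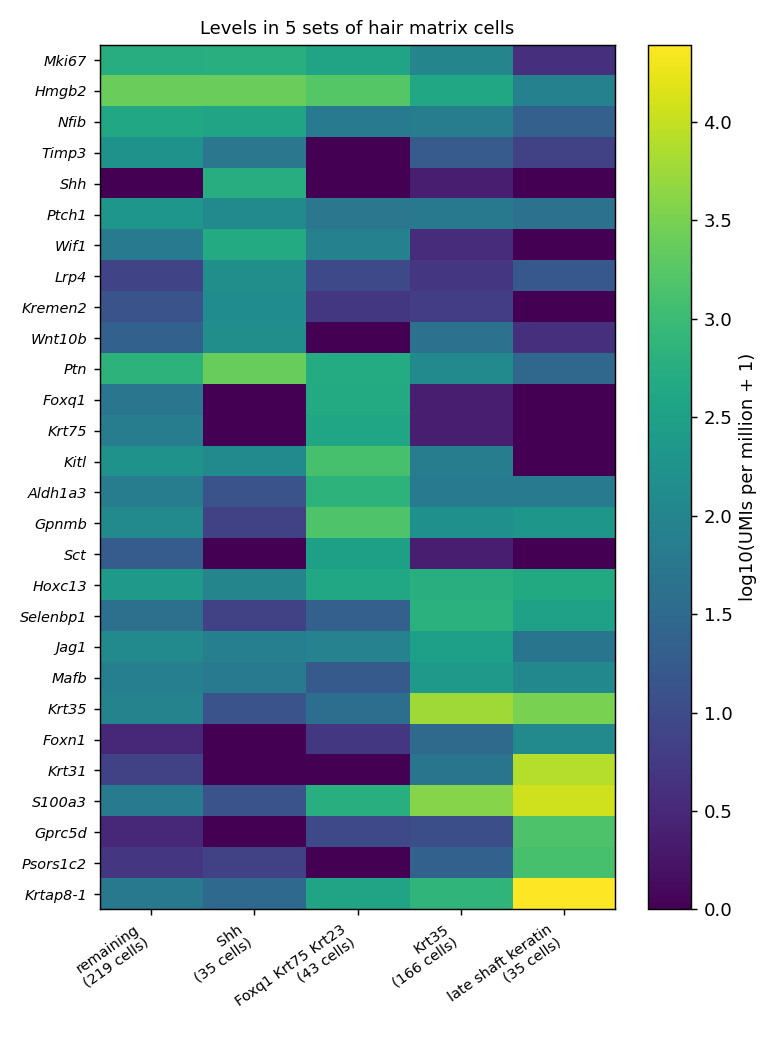
Levels of 28 genes in 5 sets of hair matrix cells as log10 of CPM plus 1, with genes as rows and sets as columns. Shh, Foxq1, Krt75, Krt35 and Krt31 helped to define the sets. Wif1, Lrp4 and Kremen2 are brightest in the Shh cells, Kitl, Aldh1a3 and Gpnmb in the Foxq1, Krt75 and Krt23 cells, and Gprc5d, Psors1c2 and Krtap8-1 in the late cells.

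Late shaft keratin cells were few and deeply read. They had a median of 8941 UMIs and up to 24898, and keratin-associated proteins summed to 33333 CPM, against 1034 CPM in the Krt35 cells and 88.1 CPM in the remaining cells. Krtap8-1 was at 24672 CPM, Gprc5d, a receptor of hard keratin tissues, at 1490 CPM and Psors1c2 at 1281 CPM, with 755, 10.5 and 22.3 CPM in the Krt35 cells. Lrrc15 was at 247 CPM in the late cells and had no UMI in the Krt35 cells. Mt4, a metallothionein of stratified epithelia, was at 25658 CPM and at 5034 CPM in the Krt35 cells, and Foxn1 was at 119 and 31.4 CPM. Krt35 itself was uneven among the late cells. It had a UMI in 25 of 35, but in the 10 cells richest in late keratins, with 250.4 to 790 UMIs per 10000, it was at 286 CPM, from 39 UMIs in 4 cells. In the same 10 cells Lef1 was at 161 CPM and Hoxc13 at 227 CPM, against 361 and 468 CPM over all 35, and S100a3 was at 22367 CPM against 11868 CPM. Mki67 or Top2a had a UMI in 3 of the 35 cells and in 0 of the 10.

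The upstream sequences of 6 genes that were highest in the late cells are printed to show how alike they are. Besides Krt31, Krtap8-1 and Krtap11-1, these are Krt33b, Krt34 and Krt36, at 953, 47.7 and 197 CPM in the late cells and at 0, 0 and 62.9 CPM in the Krt35 cells. The genes were chosen after their values were seen. Krt31 and Krt33b helped to define the late cells, so their order is set by that choice. The 250 bases before the start of each are from RefSeq (GRCm38.p6, the same coordinates as mm10), 5′ to 3′ on the coding strand, which is the minus strand for all 6. Krt31 lies at chr11:100050552-100050801, Krt33b at chr11:100029869-100030118, Krt34 at chr11:100041555-100041804 and Krt36 at chr11:100105627-100105876, in the type I keratin cluster that also holds Krt35 (chr11:100092193-100096241). Krtap8-1 lies at chr16:89487953-89488202 and Krtap11-1 at chr16:89571184-89571433. Capitals mark matches on either strand to TATAAA, the TATA box core, and to CTTTGA, the core bound by LEF1 and TCF factors.
Krt31: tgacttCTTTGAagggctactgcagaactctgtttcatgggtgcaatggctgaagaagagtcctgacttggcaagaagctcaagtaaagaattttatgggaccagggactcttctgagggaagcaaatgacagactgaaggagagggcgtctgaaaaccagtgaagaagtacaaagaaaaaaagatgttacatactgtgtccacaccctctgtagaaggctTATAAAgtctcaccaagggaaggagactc
Krt33b: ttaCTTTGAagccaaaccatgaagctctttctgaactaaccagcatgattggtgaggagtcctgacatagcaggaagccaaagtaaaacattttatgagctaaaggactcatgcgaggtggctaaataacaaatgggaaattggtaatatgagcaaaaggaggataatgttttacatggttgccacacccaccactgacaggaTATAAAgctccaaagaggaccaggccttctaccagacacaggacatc
Krt34: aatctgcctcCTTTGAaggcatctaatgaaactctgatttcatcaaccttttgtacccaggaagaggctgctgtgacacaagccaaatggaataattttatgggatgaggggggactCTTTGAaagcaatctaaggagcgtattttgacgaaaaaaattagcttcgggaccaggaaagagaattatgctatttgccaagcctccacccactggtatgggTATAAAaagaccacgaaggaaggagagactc
Krt36: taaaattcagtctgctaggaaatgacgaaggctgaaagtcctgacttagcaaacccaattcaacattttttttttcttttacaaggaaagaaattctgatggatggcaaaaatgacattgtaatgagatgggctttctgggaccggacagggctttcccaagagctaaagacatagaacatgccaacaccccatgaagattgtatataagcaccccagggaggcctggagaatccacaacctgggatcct
Krtap8-1: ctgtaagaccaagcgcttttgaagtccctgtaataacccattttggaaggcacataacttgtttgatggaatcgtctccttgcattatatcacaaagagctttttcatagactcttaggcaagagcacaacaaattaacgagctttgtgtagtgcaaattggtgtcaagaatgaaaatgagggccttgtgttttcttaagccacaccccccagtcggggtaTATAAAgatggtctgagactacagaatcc
Krtap11-1: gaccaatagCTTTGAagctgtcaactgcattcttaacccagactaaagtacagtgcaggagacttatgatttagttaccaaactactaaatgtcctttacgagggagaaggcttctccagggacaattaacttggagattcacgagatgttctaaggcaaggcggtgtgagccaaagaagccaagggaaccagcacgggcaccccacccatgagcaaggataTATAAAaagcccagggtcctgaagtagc
TATAAA was found in 5 of the 6, every time on the coding strand and beginning 28 to 47 bases before the start. In the table, 12.4% of 32851 promoters hold it in this window. CTTTGA was found in 4 of the 6 against 13.8% of all promoters, and in each of these a match began 240 to 247 bases before the start, at 244 in Krt31, 247 in Krt33b, 240 in Krt34 and 241 in Krtap11-1. Krt34 had another match at 133. Krt36 held neither. A match describes the letters only.

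Shares by marker are given after thinning, as a description only. The markers chose the members, and a member without one must hold 2 of the others, so that these contrasts are partly set by the rule. Members with Hoxc13 had Krt35 in 50.1% (44.8 to 55.5%) and Mki67 or Top2a in 22.0% (17.8 to 26.6%), those without it in 16.0% and 42.9%. Members with Msx1 had Krt35 in 27.8% and cycling genes in 52.2%, those without it in 42.7% and 21.8%. With Shh, Krt35 was in 2.70% and cycling genes in 62.2%, and without it in 42.2% and 26.0%. Members with Dlx3 had Krt35 in 30.5% and those without it in 47.6%. With and without Msx2 the shares were close, at 41.0% and 37.7% for Krt35 and 27.6% and 29.6% for cycling genes. The median depth was 4748 UMIs in members with Hoxc13 and 3721 in those without it.

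Shares on either side of the limit on sheath genes are given as a description. The 84 members at 10 to 20 sheath UMIs per 10000, just inside, had Krt35 in 26.2% and cycling genes in 67.9%. The 42 cells with 2 or more markers and 20 to 50 sheath UMIs, just outside, had them in 16.7% and 54.8%, and the 162 cells at 50 or more in 3.70% and 30.9%. In all, 204 of the 722 skin cells with 2 or more markers were set aside by this limit.

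Dcn, which encodes the proteoglycan decorin and is usually a fibroblast gene, was found in members without the collagens that go with it. It had a UMI in 149 members (28.8%, 24.9 to 32.9%), 131 of them without any UMI of Col1a1, Col1a2 or Col3a1. Members held 3.93 Dcn UMIs per collagen UMI, fibroblasts 0.360 and free RNA 0.454. The same collagens chose the fibroblasts, so their ratio is partly set by that choice. The Dcn level was 420 CPM in members, close to the 432 CPM of free RNA, and 10116 CPM in fibroblasts. Dcn was at 751 CPM in the remaining cells and 1116 CPM in the Shh cells, against 86.5 CPM in the Krt35 cells and 14.9 CPM in the late cells. Inner root sheath cells also held Dcn, in 20.8%, with 2.98 UMIs per collagen UMI, and basal cells in 4.61%, with 0.465.

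Some levels rested on few cells. Of 1388 Lor UMIs in members, 1328 lay in 6 cells, and without these cells Lor was at 23.5 CPM. The 20 epidermal cells had Lor, which helped to define them, at 11437 CPM. Their Lef1 level, 155 CPM, was the lowest of the 6 sets, but Lef1 chose the members and nothing is read from this order. Of 493 UMIs of the muscle genes Acta1, Ckm and Tnnc2, 329 lay in 1 cell, and their sum was 189 CPM with it and 63.3 CPM without it, beside 164 CPM in fibroblasts.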

How the data were processed

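Back skin and PG were each measured in 1 library from the pooled tissue of 3 mice. The authors deposited raw counts of UMIs per gene and barcode from Cell Ranger (version 4 per the file headers), not normalized and without a filter on cells. The genome build in the submitters' processing notes is mm10, and the annotation release is not given in the sources used here. Gene positions are from GENCODE M21 and promoters from RefSeq, both on that build. The kit named for both libraries is the same, but the skin matrix lists 6794880 barcodes and the PG matrix 737280.

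Barcodes with at least 500 genes, 1000 UMIs and at most 10% mitochondrial UMIs were kept as cells. No barcode of a kept cell was shared between the libraries (0). Doublets were not removed, and an alternative left out the 634 skin cells (7.12%) with the highest scores among 50 neighbours for resemblance to simulated doublets, 46 of them members. Counts were summed over cells and given as CPM with exact Poisson intervals. Ratios have exact binomial intervals and shares Clopper-Pearson intervals, all at 95%. A list gene was compared with a mean of at least 10 CPM over both groups and called at 2-fold. A group at 0 was set to 3 counts. Thinning to 1000 UMIs left out no cell. Free RNA came from barcodes with at most 100 UMIs. Basal cells had Krt5 and Krt14, suprabasal cells Krt1 and Krt10, and fibroblasts Col1a1, Col1a2 and Col3a1, at 50 or more UMIs per 10000 classed by the highest of these sums, and sheath cells 20 or more sheath UMIs. Genes were named by list, with those holding most UMIs as examples, and as the 15 highest and 10 lowest ratios with at least 50 CPM and UMIs in 10% of cells, some of which are not reported here. Genes named for a set of members, and other examples outside this rule, were chosen after their values were seen. The groups and the share along the shaft keratins were planned on Krt35 and Krt85. Krt85 is not among the gene symbols of the count data and was not analysed here, so the shares are of Krt35 alone. A gene of the lists is not reported here and was left out of their counts. The members and the lists were chosen with earlier results of these data known. The counting and ratio steps were tested on simulated data. Python 3.11.15, numpy 2.4.6, scipy 1.17.1, pandas 2.3.3, scikit-learn 1.9.0 and matplotlib 3.10.9 were used.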

Additional observations from a re-analysis of the deposited data

How the results depend on the processing

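No paired analysis was possible because each tissue is 1 library of pooled mice, so no replicate can be left out and no spread between mice is known. The number of members depended most on the rule, with 267 cells at 3 or more markers and 152 when the rule was applied after thinning to 1000 UMIs, against 518. The share with Krt35 (46.3%) was 51.7% at 3 or more markers and 51.4% without Dlx3 as a marker. Counting the 5 late shaft keratins as well, an alternative chosen after seeing the data, gave 49.4%. The share with cycling genes (44.0%) was 39.4% with the sheath limit at 10, 39.5% for the rule after thinning and 89.2% when UMIs of 2 G2 and M genes were asked for. The difference in thinned cycling share between members above 10 and without Krt35, -35.3 percentage points, was -44.7 at 3 or more markers. Under the other alternatives the shares stayed within the counting intervals given in the report, and the numbers of genes 2-fold higher or lower than in basal cells, 1341 and 1019, within 1.5 times. Of the values for single genes, 28 moved by more than their counting interval. Foxq1 over basal cells, near 0 at -0.07, changed sign under 6 alternatives, up to 0.24 as the mean over cells. Krt14 over basal cells, at -4.02, was -5.38 without the highest doublet scores, and Sfrp1, at -1.89, was -0.69 for the rule after thinning and -3.96 at 3 or more markers. The cause was not tested.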
